A study of Mus musculus with 12 samples.

Results

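The genes described here encode the protein subunits of the mitochondrial ribosome. They were chosen from the table of gene counts by their symbols, which start with Mrpl for the large subunit or Mrps for the small subunit, followed by a number and at most 1 letter from a to c. This gave 78 of the 55573 genes in the table, 49 Mrpl and 29 Mrps genes. RNA-sequencing was performed on tumourspheres of 3 lines grown from spindloid mammary tumours of mice, named A1005, A1129 and A1471. Every line came from a separate tumour of the genotype MMTV-Metmt;Trp53fl/+;Cre. In this genotype the MMTV promoter, which is active mainly in mammary epithelium, drives an activated Met receptor, and 1 allele of Trp53 can be deleted by Cre. These alleles are shared by all libraries, controls included. Each line was treated for 24 h with the vehicle DMSO, the Met inhibitor Crizotinib, the FGF receptor inhibitor PD173074 or both (Combo), which gave 12 libraries with n = 3 lines per treatment. Age and sex of the mice were not used here, and each line is 1 isolate in culture.

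Mitochondrial ribosomes translate the few proteins that mitochondrial DNA encodes, all of them core subunits of the respiratory chain and ATP synthase. Their rRNAs are transcribed inside the organelle, whereas every one of their proteins is encoded in the nucleus, made in the cytosol and imported. Assembly therefore needs matched output from both genomes. Nuclear respiratory factors, the ETS factor GABP and Yy1 are known regulators of nuclear genes for mitochondrial proteins. Members with low numbers mostly have counterparts in bacterial ribosomes, and those with higher numbers are mostly specific to mitochondria. Exceptions to this numbering include Mrps24 and Mrpl55, which have bacterial counterparts, and Mrps30 and Mrps18a, which sit in the large subunit. Mrps36 is now regarded as a subunit of the oxoglutarate dehydrogenase complex, and without it the median change in Combo against DMSO over the other 77 members was -0.35 on the log2 scale.

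The libraries held 13031492 to 17750476 counts, and all 78 members passed the filter on low counts that left 13836 genes for testing. Member counts per library ranged from 12 (Mrpl53) to 2852, so Mrpl53 was the least precise. Of the marker lists, mesenchymal genes summed to 2088 to 3459 CPM (counts scaled by the TMM-adjusted library size) per library and epithelial genes to 7.53 to 53.4 CPM. Endothelial genes summed to at most 0.751 CPM in every library. Leukocyte genes summed to 31.4 CPM with DMSO and 42.0 CPM with Combo in A1005, to 4.47 and 10.9 CPM in A1129 and to 5.38 and 8.29 CPM in A1471. Their sum was thus higher with Combo in each line, while that of the members described below was lower. Only 2 leukocyte genes passed the filter on low counts. Of these, 1 was higher with Combo in all 3 lines and 1 was lower in A1129 and A1471. The part of leukocyte genes in the results was not tested. Met was read at 2610 to 5086 CPM with DMSO and at 2662 to 6910 CPM with Combo, and its change did not pass the test (log2 fold change 0.30 ± 0.44 SE, edgeR quasi-likelihood test, adjusted p = 0.722). In bulk RNA, fewer cells that express a gene and less RNA per cell cannot be told apart.

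Member genes lie on 17 chromosomes. The promoter stretches of the members with the 3 largest called falls, and of Mrpl27, whose change was not called, are shown because they differ in the motifs they hold. Each is the 150 bases before the RefSeq start (GRCm38.p6), read in the direction of the gene. Capitals mark exact matches, on either strand, to GGGCGG (Sp family) or CCGGAAG (ETS family).
Mrps22, chr9:98601680-98601829, minus strand: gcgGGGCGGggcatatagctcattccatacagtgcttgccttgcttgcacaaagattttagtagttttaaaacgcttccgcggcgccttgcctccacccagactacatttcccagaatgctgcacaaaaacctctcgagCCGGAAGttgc
Mrpl42, chr10:95501950-95502099, minus strand: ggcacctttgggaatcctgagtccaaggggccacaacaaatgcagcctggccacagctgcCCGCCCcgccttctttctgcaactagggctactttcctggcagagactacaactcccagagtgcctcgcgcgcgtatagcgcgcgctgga
Mrpl12, chr11:120484487-120484636, plus strand: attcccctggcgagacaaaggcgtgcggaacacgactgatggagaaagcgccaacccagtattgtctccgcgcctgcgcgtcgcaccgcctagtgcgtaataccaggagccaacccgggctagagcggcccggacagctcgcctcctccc
Mrpl27, chr11:94653641-94653790, plus strand: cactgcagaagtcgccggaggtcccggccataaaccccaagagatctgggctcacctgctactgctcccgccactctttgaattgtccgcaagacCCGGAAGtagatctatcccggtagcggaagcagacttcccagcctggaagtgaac

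Promoter windows of 300 bases, 250 before and 50 after the start, were held by RefSeq for 69 of the 78 members, in 75 windows because some genes have several. The ETS letters CCGGAAG were in 34.7% of the member windows, in 17.4% of the 12828 windows of tested genes and in 8.86% of all 32851 windows. The Yy1 letters AAGATGGC were in 16% of member windows, against 4.35% of windows of tested genes and 2.75% of all windows. The Nrf1 letters CGCATGCG were in 9.33%, 3.75% and 1.87% of these windows. The Sp letters GGGCGG, which are common in GC-rich promoters, were in 52% of member windows and 62.6% of those of tested genes (35.7% of all). The E-box CACGTG was in 9.33% and 9.84% (7.15% of all), the CRE TGACGTCA in 2.67% and 2.99% (1.79% of all) and the E2F letters TTTCCCGC in 1.33% and 2.03% (1.07% of all). GGGCGG and TTTCCCGC can overlap on opposite strands. Median GC content was 58.7% in member windows and 60.7% in windows of tested genes. Among members called lower with Combo when the line was blocked, as described later, 32.4% of 34 windows held the ETS letters and 17.6% the Yy1 letters. Among the other members, 36.6% and 14.6% of 41 windows did, so either motif was about as frequent in members that were called as in members that were not.

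Levels within the members spanned a wide range. Per kilobase of merged exon, with TMM scaling (RPKM), the mean over the 12 libraries was highest for Mrps21 (84.0), Mrpl12 (80.5) and Mrpl28 (64.7) and lowest for Mrpl48 (2.21), Mrpl23 (2.02) and Mrpl53 (1.57). Mrps21 encodes bS21m of the small subunit, Mrpl12 the stalk protein that contacts elongation factors, and Mrpl28 the large subunit protein bL28m. Of the exon bases of Mrpl53, 88.0% overlap those of other annotated genes, so that reads there may have been discarded or assigned elsewhere. Merged exons are 607 to 8631 bases long in the members and include rare isoforms, which lowers the per-kilobase level of genes such as Mrpl48. In CPM, without the division by length, 5 of the 10 highest members stayed among the 10 highest.

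Levels in DMSO were similar between the 3 lines. The SD of log2 CPM between the DMSO libraries had a median of 0.19 over the members, against 0.39 over all genes tested. Mrpl13 varied most, with 177, 68.3 and 141 CPM in A1005, A1129 and A1471. Mrps28 followed with 14.8, 37.0 and 24.8 CPM. For both genes the lines differed more in DMSO than Combo and DMSO did within any line.

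The first comparison asks what inhibition of both receptors did to these genes. In Combo against DMSO the members shifted downward together, by a modest amount. The summed level of the 78 members was 4055, 3905 and 4273 CPM with DMSO and 3601, 2714 and 3271 CPM with Combo, in A1005, A1129 and A1471. All 3 Combo libraries lay below all 3 DMSO libraries. Within each line the fall was 11.2%, 30.5% and 23.5%, with a mean ratio of 0.783 ± 0.098 (SD, n = 3). An exact permutation test of the sums, without pairing by line, gave p = 0.1 (two-sided), the smallest that 3 against 3 libraries allow. By symbol, Mrpl genes summed to 2669 ± 103 CPM with DMSO and 2120 ± 324 CPM with Combo, and Mrps genes to 1409 ± 90.1 CPM and 1076 ± 127 CPM. The Mrps sums include Mrps30, Mrps18a and Mrps36, whose proteins are not in the small subunit as described above. The ratio of the Mrpl to the Mrps sum was 1.82 to 1.97 with DMSO and 1.91 to 2.07 with Combo.

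**Figure D1:**
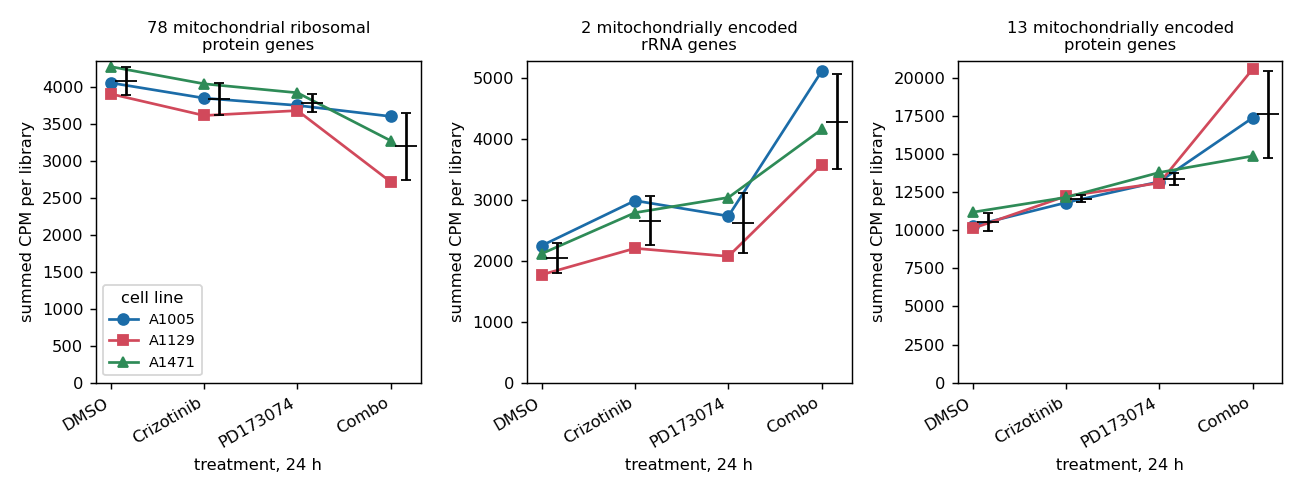
Summed CPM per library (y axis, from 0) of the 78 members, the 2 mitochondrially encoded rRNA genes and the mitochondrially encoded protein genes by treatment (x axis). Coloured symbols are the 3 cell lines, joined within a line, and black marks are the mean with SD (n = 3). Members were lowest with Combo in each line (2714 to 3601 CPM), where both mitochondrially encoded classes were highest.

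By sign alone, 69 of the 78 members had a lower fitted level with Combo, and the median log2 fold change was -0.32, against 0.02 over all genes tested. In the unpaired fit, 7 members were called lower (edgeR quasi-likelihood test, adjusted p under 0.05), which is 8.97% of the members and close to the 8.28% of all tested genes called lower. None was called higher, against 6.10% of all genes. At an unadjusted p under 0.05 the counts were 29 lower (37.2%) and 0 higher, against 15.5% and 13.4% of all genes. A fit that blocks on cell line compares libraries within a line, and in it 40 members were called lower (51.3%) and 0 higher, against 26.2% and 28.6% of all genes, and the 40 included all 7. Differences between the lines enter the error of the unpaired fit but not of the blocked fit. Without A1129 or without A1471 the unpaired fit called 0 members, and without A1005 it called 10. With the block, leaving out A1005, A1129 or A1471 gave 42, 26 and 23 members called lower, and 1 called higher without A1129 (Mrpl36). Shares of all genes called without a line are not given here. In the fits without a line, a change particular to the members therefore cannot be told from a change over all genes.

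In 29 of the 78 members (37.2%), all 3 Combo libraries lay below all 3 DMSO libraries, and in 0 members all lay above. Over all genes these shares were 16.1% and 13.8%. Combo was lower than DMSO in each of the 3 lines for 51 members (65.4%, against 32.5% of all genes). It was higher in each line for 2, Mrpl39 and Mrps21 (2.56%, against 33.9% of all genes). A1129 had the largest shift, with a median of -0.49 over the members on the log2 scale, A1471 had -0.32 and A1005 -0.19. In A1005, 56 members were lower, in A1129 75 and in A1471 62. With 1 library per line and treatment, the difference between lines could not be tested.

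**Figure D2:**
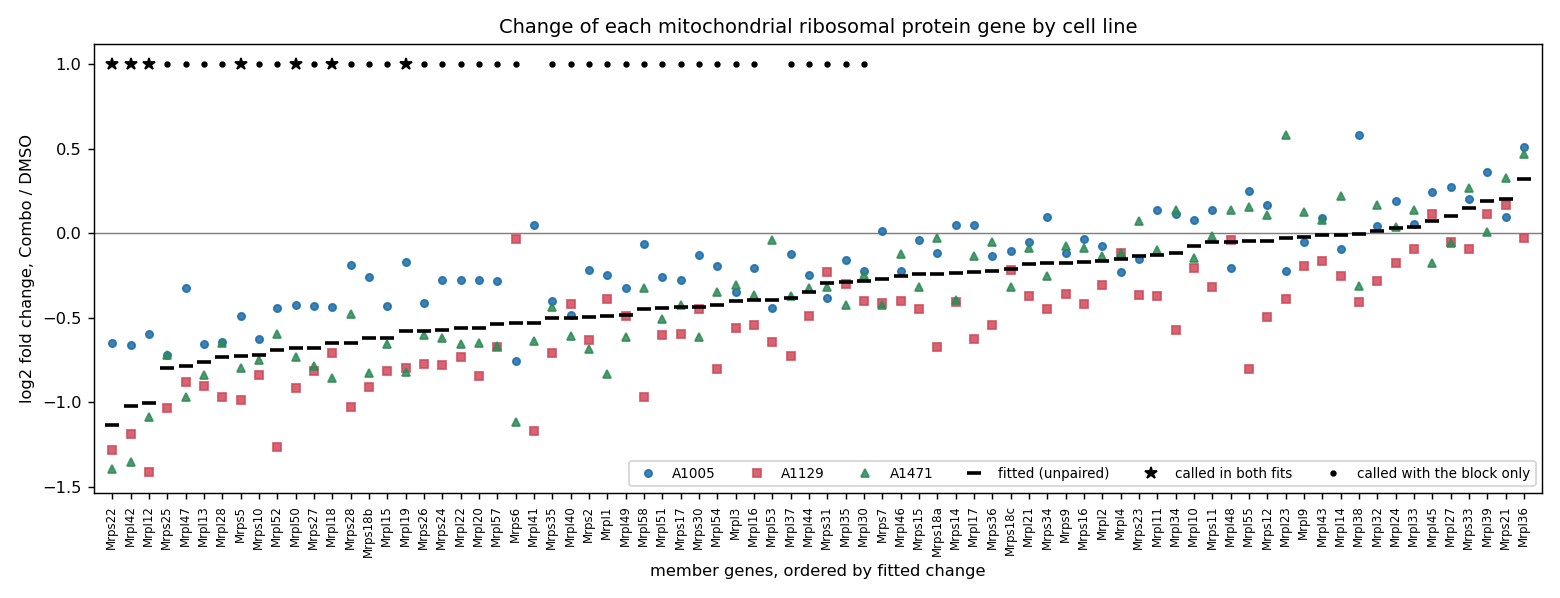
Log2 fold change of Combo over DMSO (y axis) for each member (x axis, ordered by the fitted change), with coloured symbols for each line and black bars for the unpaired fit. Stars mark the 7 members called in both fits and dots the members called only with the block, all of them on the left, while the largest fitted rise is 0.32 (Mrpl36).

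The falls were largest for Mrps22, Mrpl42 and Mrpl12. Mrps22, a mitochondria-specific small subunit gene (chromosome 9, 98588730 to 98601660, mm10), had 40.5, 55.4 and 62.5 CPM with DMSO and 25.7, 22.7 and 23.7 CPM with Combo in A1005, A1129 and A1471. Its DMSO levels differed between the lines, whereas its Combo levels spanned 22.7 to 25.7 CPM. The log2 fold change was -1.14 ± 0.24 (SE, edgeR adjusted p = 0.0131; with the block -1.10, adjusted p = 0.000296). Mrpl42, a mitochondria-specific large subunit gene (chromosome 10, 95480805 to 95501940), had 72.7, 54.7 and 70.7 CPM with DMSO and 45.9, 23.9 and 27.6 CPM with Combo. Groups did not overlap, and the change was -1.02 ± 0.25 (edgeR adjusted p = 0.0236; with the block 0.00021).

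Mrpl12 belongs to the stalk of the large subunit, a flexible arm that recruits translation factors, and its protein is also known to bind the mitochondrial RNA polymerase. It lies on chromosome 11 from 120484613 to 120489065. Its levels were 148, 163 and 136 CPM with DMSO and 97.5, 60.9 and 64.0 CPM with Combo, with no overlap. The log2 fold change of -1.01 ± 0.18 had the smallest adjusted p of the members in the unpaired fit (edgeR, 0.00662). For the other stalk genes no change was called. Mrpl10, which anchors Mrpl12 on the ribosome, had a log2 fold change of -0.07 ± 0.24, Mrpl11 of -0.13 ± 0.24 and Mrpl53 of -0.40 ± 0.36, and none of these 3 was called in either fit.

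Among the other called members, Mrps5, the counterpart of a bacterial protein near the mRNA entry and decoding region, had 67.1, 56.5 and 57.2 CPM with DMSO and 47.8, 28.4 and 32.9 CPM with Combo (log2 fold change -0.73 ± 0.21, edgeR adjusted p = 0.0471). Mrps12, another gene of the decoding region, had 24.7, 22.3 and 19.3 CPM with DMSO and 27.8, 15.8 and 20.8 CPM with Combo, which overlapped. Its change of -0.04 ± 0.22 was not called. Mrpl50, a mitochondria-specific gene, had 47.6, 52.2 and 42.2 CPM and then 35.5, 27.6 and 25.4 CPM (-0.68 ± 0.17, edgeR adjusted p = 0.0237). Mrpl18, whose protein binds near the central protuberance, had 93.2, 80.9 and 88.9 CPM and then 68.9, 49.5 and 49.1 CPM (-0.65 ± 0.16, edgeR adjusted p = 0.0250). The Combo libraries lay below all DMSO libraries for each of these 3 called genes. The 7th, Mrpl19, changed by -0.58 ± 0.16 (edgeR adjusted p = 0.0373) and is named here because it completes the count. Of the 6 largest called falls, 1 remained called when only the libraries compared were fitted, 0 without A1129 and 0 without A1471, while all 6 stayed lower in each of these fits.

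**Figure D3:**
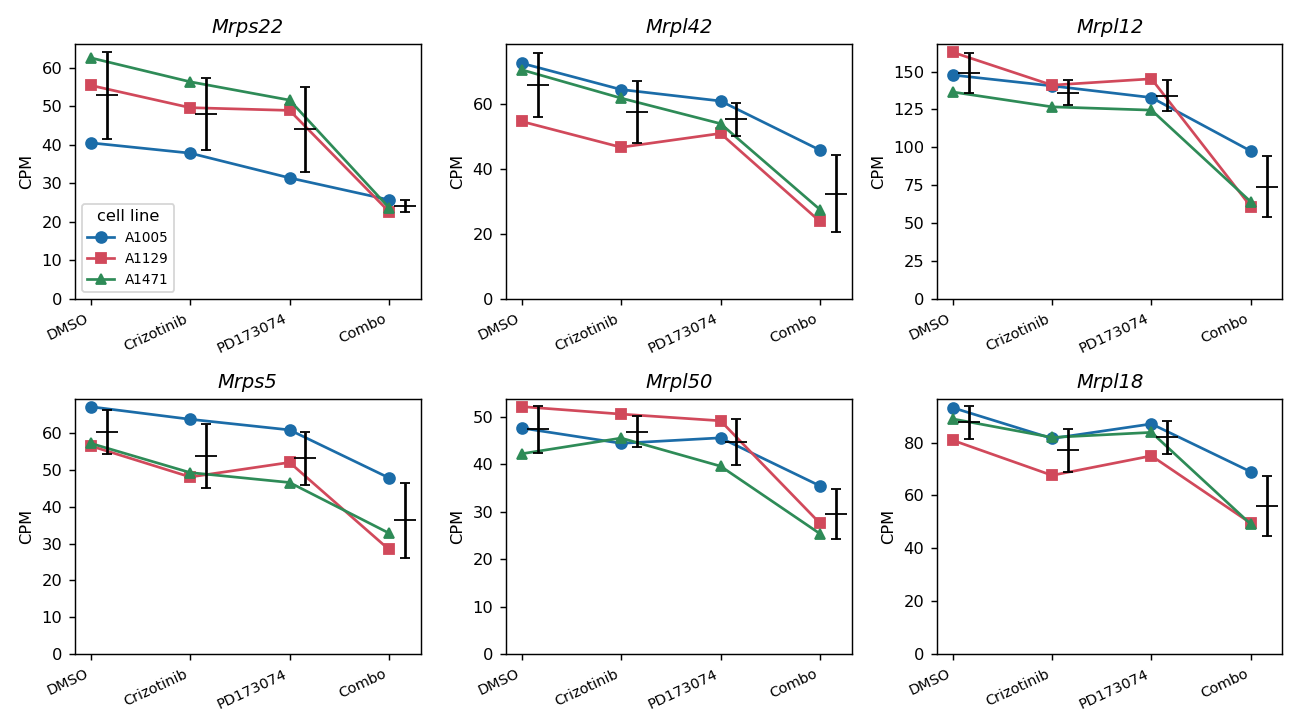
CPM per library (y axis, from 0) of the 6 members with the largest called falls, by treatment (x axis). Coloured symbols are the 3 cell lines, joined within a line, and black marks the mean with SD (n = 3). Combo libraries are the lowest of each line in every panel, and single inhibitors lie between DMSO and Combo or near DMSO.

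Members near the exit of the peptide tunnel gave mixed values. There the nascent chain leaves the ribosome and is inserted into the inner membrane, and Mrpl45 is the anchor to that membrane. Mrpl45 had 109, 85.1 and 106 CPM with DMSO and 129, 91.9 and 93.7 CPM with Combo (log2 fold change 0.07 ± 0.19). Mrpl39 had 62.4, 52.0 and 46.0 CPM and then 80.2, 56.4 and 46.2 CPM (0.19 ± 0.25). Mrpl24 changed by 0.03 ± 0.17 and Mrpl23 by -0.03 ± 0.27. Groups overlapped for all 4 and none was called in either fit. Mrpl44, in the same region, had 32.6, 30.2 and 28.8 CPM with DMSO and 27.5, 21.5 and 23.1 CPM with Combo, and was called lower only with the block (-0.35, edgeR adjusted p = 0.0188). These 5 are not all the members of that region. Of others there, named after their values were seen, Mrpl22 (-0.56 ± 0.20) and Mrpl47 (-0.79 ± 0.33) were called lower with the block (edgeR adjusted p = 0.00259 and 0.00148), and Mrpl17 (-0.23 ± 0.26) in neither fit.

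The central protuberance links both subunits and contacts the tRNAs. Mrpl18, which binds there and was described above, was called in both fits. Of 6 other genes of the protuberance, which are not all the genes of that region, 0 were called in the unpaired fit and 2 with the block. These were Mrpl40 (55.7, 29.2 and 29.2 CPM with DMSO, 39.7, 21.8 and 19.1 CPM with Combo) and Mrps30 (67.3, 81.4 and 125 CPM, then 61.6, 59.5 and 81.4 CPM). Mrpl38 split by line, with 106 CPM in DMSO and 158 CPM in Combo in A1005, 115 and 87.0 CPM in A1129, and 130 and 104 CPM in A1471 (fitted change -0.00 ± 0.20). Mrpl27 (0.10 ± 0.35), Mrpl46 (-0.25 ± 0.16) and Mrpl48 (-0.05 ± 0.26) were not called. Mrpl58, a peptidyl-tRNA hydrolase that is built into the ribosome at the protuberance and is related to factors that rescue stalled ribosomes, changed by -0.45 ± 0.26 and was called with the block (edgeR adjusted p = 0.0465). Of the 3 Mrps18 paralogs, which occupy different sites on the ribosome, Mrps18b was called with the block (-0.65, edgeR adjusted p = 0.00568). Mrps18a (-0.24 ± 0.21) and Mrps18c (-0.21 ± 0.16) were not called. Mrps36 changed by -0.22 ± 0.25 and was not called.

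By class, the 44 members with low numbers had a median of -0.24 and 4 called lower in the unpaired fit (19 with the block). The 34 with higher numbers had a median of -0.44 and 3 called lower (21 with the block). The classes were set by number alone, so exceptions such as Mrps24 and Mrpl55 count with the higher numbers. Called shares of the low and higher numbers were 9.09% and 8.82% in the unpaired fit, near the 8.28% of all genes. With the block they were 43.2% and 61.8%, against 26.2% of all genes. Medians were -0.35 for the 49 Mrpl and -0.30 for the 29 Mrps genes. For the 53 members with less than 5% of their exon bases shared with another gene the median was -0.39, and for the other 25 it was -0.27. Across the 78 members, the fitted change had a Spearman correlation of 0.13 with the level per kilobase and of -0.20 with exon length, given as a description across genes that share libraries. At the other end of the order, the largest fitted rise, named after its value was seen, was that of Mrpl36 (27.6, 33.5 and 32.2 CPM with DMSO, 39.4, 32.8 and 44.7 CPM with Combo). It was not called in either fit (0.32 ± 0.19, edgeR adjusted p = 0.299; with the block 0.0628), but was called higher in the blocked fit with DESeq2 size factors or with total counts alone.

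The next comparisons ask whether either inhibitor alone had the same effect. They share the DMSO libraries with the comparison above. With PD173074 the summed level of the members was 3750, 3679 and 3920 CPM, a ratio to DMSO of 0.928 ± 0.013 within lines. With Crizotinib it was 3848, 3613 and 4041 CPM (0.940 ± 0.013). Both groups overlapped DMSO (exact permutation test without pairing by line, two-sided p = 0.2 for each). Within each line the sum was below DMSO with either inhibitor, with ratios of 0.917 to 0.942 for PD173074 and 0.925 to 0.949 for Crizotinib. The median log2 fold change was -0.09 with PD173074 and -0.10 with Crizotinib, with 68 and 70 of 78 members on the lower side. None was called with either inhibitor in either fit. With the block and PD173074, 0.520% of all genes were called lower, and the smallest adjusted p of a member was 0.135 (edgeR, Mrps35, -0.29). At an unadjusted p under 0.05 in the same fit, 7 members were lower (8.97%) and 0 higher, against 6.11% and 9.61% of all genes, so the share on the lower side was near that of all genes. With Crizotinib, 1 member (Mrps26, -0.24 with the block) had an unadjusted p under 0.05 with the block (1.28%, against 0.773% of all genes on the lower side), 0 in the unpaired fit, and DESeq2 and limma-voom called 0 members with either inhibitor. At an unadjusted p under 0.05 the unpaired fit had 0 members with PD173074.

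**Figure D4:**
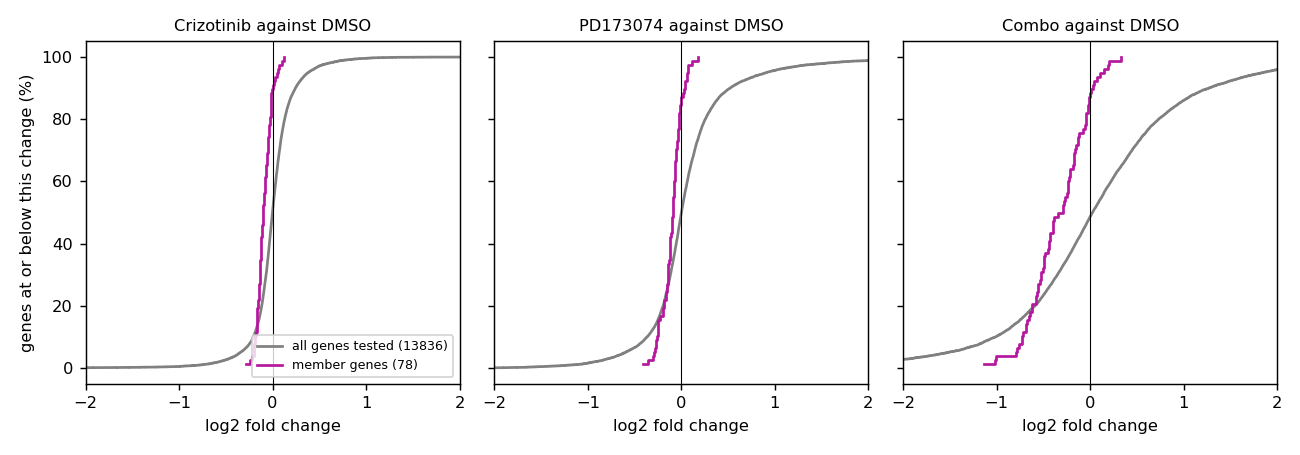
Percent of genes (y axis) at or below each log2 fold change (x axis, from the unpaired fit) for the 78 members and for all 13836 genes tested, with Crizotinib, PD173074 and Combo against DMSO. Axes end at 2 in either direction, so that some of all genes lie outside. The member curve lies left of 0 at its midpoint in each panel, by -0.10, -0.09 and -0.32, and is narrower than that of all genes.

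Combo was also set against each inhibitor. Against PD173074 the median over the members was -0.23, and 1 member was called lower in the unpaired fit, Mrpl12 (-0.85), against 3.93% of all genes. With the block 27 members were called lower and 0 higher (20.2% and 19.6% of all genes). Against Crizotinib the median was -0.24, and Mrps22 (-0.996), Mrpl12 (-0.88) and Mrpl50 (-0.67) were called lower, against 7.78% of all genes. With the block 32 members were lower and 2 higher (26.0% and 27.4% of all genes), the latter being Mrpl39 (0.30) and Mrps21 (0.25). All 3 comparisons use the same Combo libraries.

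Departure of Combo from the sum of both single effects, on the log2 scale, was called for 0 members in the unpaired fit, and for 0 by DESeq2 or limma-voom. At an unadjusted p under 0.05 the unpaired fit had 2 members lower (2.56%), against 6.44% of all genes. With the block it was called for 4 members, all lower than the sum, against 10.7% of all genes. These were Mrps27, a mitochondria-specific small subunit gene of the pentatricopeptide repeat family, Mrps2, Mrpl12 and Mrpl50. Mrps2 had 59.0, 48.7 and 66.3 CPM with DMSO, 64.4, 46.5 and 68.9 with Crizotinib, 62.5, 53.1 and 63.4 with PD173074 and 50.7, 31.4 and 41.1 with Combo. Single inhibitors left it near its DMSO level in each line, and Combo was the lowest. Mrps27 had 55.1, 51.0 and 77.97 CPM with DMSO and 40.8, 28.9 and 45.2 with Combo, and its single-inhibitor levels of 49.5 to 75.9 CPM lay near DMSO of the same line, except 64.6 CPM with PD173074 in A1471.

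A few genes with other symbols also encode proteins of the mitochondrial ribosome. Of 5 such genes, 3 were called lower in the unpaired fit and 4 in the blocked fit, against 8.28% and 26.2% of all genes. Their median log2 fold change was -0.77. Ptcd3 (mS39) had 111, 143 and 181 CPM with DMSO and 86.8, 79.6 and 84.2 CPM with Combo (-0.79 ± 0.23, edgeR adjusted p = 0.0468). Chchd1 (-0.78 ± 0.22) and Gadd45gip1 (-0.77 ± 0.21) were called as well. Dap3 was called with the block only (-0.38), and Aurkaip1 (-0.20 ± 0.15) in neither fit.

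The rest of the mitochondrial translation system was mixed. For scale, the unpaired fit called 8.28% of all genes lower and 6.10% higher, and the fit with the block 26.2% and 28.6%. Assembly and rRNA modification factors, at 4% lower in the unpaired fit and 28% with the block, were not above these lower shares by much or at all. Of 25 assembly and rRNA modification factors, 1 was called lower in the unpaired fit (Rcc1l, -1.04 ± 0.22, edgeR adjusted p = 0.0131), and with the block 7 were lower and 2 higher. Noa1, a GTPase of small subunit assembly, had -0.82 with the block, and Mpv17l2 0.74. Of 15 translation factors, 3 were called lower in the unpaired fit, namely the elongation factors Tufm (-0.74 ± 0.17) and Tsfm (-0.96 ± 0.21) and the GTPase Guf1 (-0.68 ± 0.19). With the block 5 were lower and 1 higher, the initiation factor Mtif3 (0.38). Of 17 mitochondrial aminoacyl-tRNA synthetases, 5 were lower and 2 higher with the block. Of 11 tested regulators of mitochondrial biogenesis, Tfam, which packages and transcribes mitochondrial DNA, was called lower in the unpaired fit (57.8, 46.7 and 61.6 CPM to 39.5, 25.7 and 27.5 CPM, -0.84 ± 0.20). With the block 7 were called lower and 0 higher, among them Myc, Nrf1, Gabpa, Yy1 and the coactivator Pprc1.

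Transcripts of the mitochondrial genome mostly went the other way. The 12S rRNA mt-Rnr1, which the small subunit is built on, had 443, 599 and 560 CPM with DMSO and 599, 1027 and 1624 CPM with Combo (1.02 ± 0.32, edgeR adjusted p = 0.0575; with the block 0.00221). The 16S rRNA mt-Rnr2 of the large subunit had 1807, 1174 and 1558 CPM and then 4517, 2554 and 2536 CPM (1.08 ± 0.31, edgeR adjusted p = 0.0427). Of 12 tested mitochondrial mRNAs, 4 were called higher in the unpaired fit and 6 with the block, and 0 lower, with a median of 0.58. Over all genes, 6.10% and 28.6% were called higher in these fits. The share of all counts on the mitochondrial chromosome was 1.21% to 1.29% with DMSO and 1.93% to 2.52% with Combo. Crizotinib (1.44% to 1.48%) and PD173074 (1.53% to 1.66%) lay in between. How the libraries selected RNA is not given in the sources used here, and rRNA levels depend on that step. Members were higher relative to the organelle's own rRNA in DMSO than in Combo in each line.

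**Figure D5:**
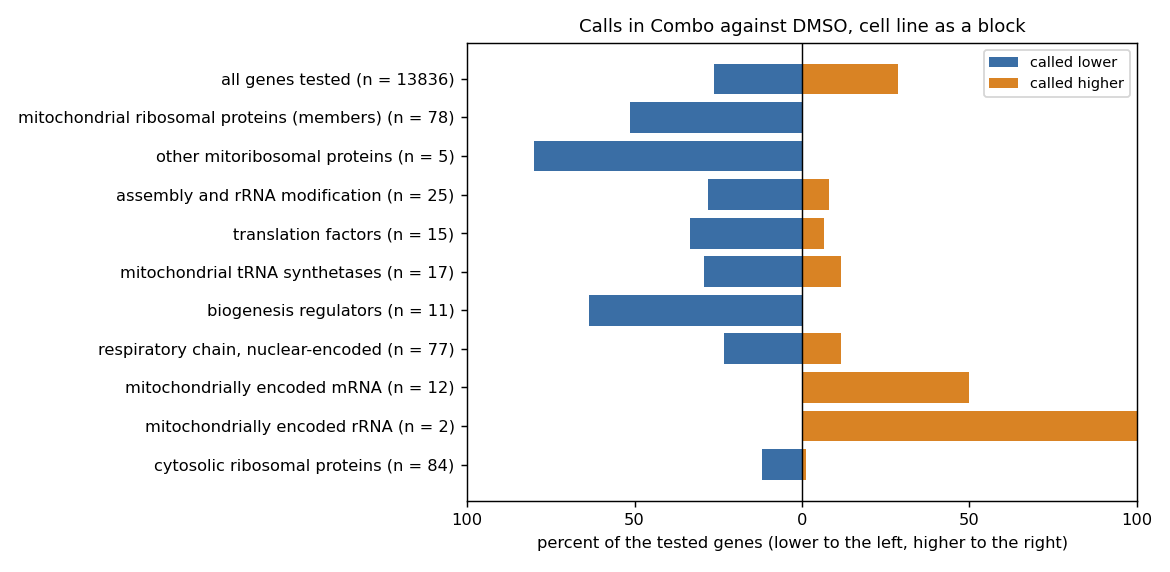
Percent of the tested genes of each list called lower (left) or higher (right) in Combo against DMSO in the blocked fit (x axis), with the number tested in brackets. Members were called in 1 direction only (51.3% lower), mitochondrially encoded rRNA and mRNA in the other, and all genes in both (26.2% and 28.6%).

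Other large protein complexes gave smaller medians. Their counts of calls can be read against all genes, of which 8.28% were called lower and 6.10% higher in the unpaired fit. With the block these shares of all genes were 26.2% and 28.6%. Of 84 tested cytosolic ribosomal protein genes, 2 were called lower in the unpaired fit, and 10 lower and 1 higher with the block. Their median was -0.15, and it differed in sign between lines (A1005 -0.08, A1129 -0.55, A1471 0.11). Of 77 tested nuclear-encoded respiratory chain subunits, the partners of the proteins that mitochondrial ribosomes make, 2 were lower and 1 higher in the unpaired fit, and 18 lower and 9 higher with the block (median -0.07). Many cytosolic ribosomal protein genes have near-identical pseudogenes, so their counts are uncertain. Proliferation genes moved with the members: all 12 listed genes, such as Cdk1 (-2.30 ± 0.15), were lower with Combo in each line, 11 were called in the unpaired fit, and the median was -1.92. Their part in the result was not tested.

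Of the members, 25 have a tested gene that starts on the opposite strand within 1000 bases of their own start. With the block, 7 of these 25 neighbours were called lower with Combo, 7 higher and 11 in neither direction. These shares were near those of all genes in that fit (26.2% lower and 28.6% higher). Pairs in which both fell were Mrpl51 with Ncapd2, Mrpl57 with Ska3, Mrpl13 with Mtbp, Mrpl40 with Hira and Mrps27 with Ptcd2. Ncapd2 (-1.75 in the unpaired fit) and Ska3 (-2.04) act in chromosome condensation and segregation, and their members Mrpl51 and Mrpl57 changed by -0.44 and -0.53. In other pairs the partners differed. Mrpl44 was called lower and its neighbour Wdfy1 higher (1.02), and Mrpl27 (0.10), whose promoter with the ETS letters is printed above, was not called while its neighbour Eme1, a DNA repair nuclease gene, fell by 1.82 on the log2 scale. Mrpl46 and Mrps11, both members, share such a promoter, and neither was called (-0.25 and -0.05). They count as a neighbour of each other among the 25.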

How the data were processed

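RNA-sequencing was analysed from 12 libraries of tumourspheres. The authors deposited raw read counts per Ensembl gene, without normalization. Per the submitters' processing notes, bcl2fastq, STAR and HTSeq were used with the build mm10. Their versions, the strand setting, the annotation release and the library type are not given in the sources used here, so members that share exons with other genes are uncertain. Groups and cell lines came from the labels.

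Genes passing filterByExpr (minimum count 10, minimum total 15) entered a quasi-likelihood fit after TMM scaling (edgeR 4.0.16, R 4.3.3) of all 12 libraries, with Benjamini-Hochberg adjustment over all 13836 genes at 0.05. The main fit had no block, because the study's methods state an unpaired analysis. Pairing rests on the labelled cell line. Libraries of the same line deviated together (correlation 0.766 to 0.962 over 18 pairs, mean -0.422 over 36 pairs of different lines), so the fit with the line as a block is printed where it changes a call. The lines come from separate tumours but each line and treatment has 1 library. No 2 libraries agreed within sampling noise (lowest chi-square per gene 4.54 over 66 pairs). The prior count for log2 CPM was 2. Exon lengths and neighbours came from GENCODE M21 (mm10), where 55480 of the table's genes were found, and promoters from RefSeq. The tests were run on simulated data with 200 changed genes, each changed alike in every line. Changes differed between the lines here, so that simulation does not vouch for the calls. Python 3.11.15, pandas 2.3.3, numpy 2.4.6 and matplotlib 3.10.9 were used.

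The alternatives were the block, DESeq2 1.42.0, limma-voom (limma 3.58.1), DESeq2 size factors, total counts alone, other filters, only the libraries compared, a log2 fold change of at least 1.5, and leaving out each line. The block with a line left out or with other scalings was added after the data were seen. Members and lists were chosen with earlier results of these data known. Genes were named by their role in the ribosome, by the 6 largest called falls and rises with Combo (0 rises were called), by the 3 highest and 3 lowest levels per kilobase, by the lists, and as Met and Fgfr1. Fgfr1 did not pass the test (-0.11, edgeR adjusted p = 0.711). Other members named with values, such as Mrpl13, Mrps28, Mrps35, Mrps26, Mrps2, Mrps27, Mrpl36, Mrpl51 and Mrpl57, were chosen after their values were seen. A gene of these lists is not reported here.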

Additional observations from a re-analysis of the deposited data

Results flagged for a closer look

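Of the results, 4 were marked because the effect of 1 inhibitor differed with and without the other, by the test of the departure of Combo from the sum of both single effects with the cell line as a block (edgeR quasi-likelihood test over all genes). The departure was -0.74 ± 0.20 (SE) on the log2 scale for Mrpl12 (adjusted p = 0.0347), -0.59 ± 0.16 for Mrps2 (0.0322), -0.59 ± 0.17 for Mrpl50 (0.0395) and -0.55 ± 0.15 for Mrps27 (0.0322). These 4 are 5.13% of the members, below the 10.7% of all genes tested that were called lower than the sum in the same fit. In the unpaired fit none of the 4 passed, with edgeR adjusted p-values of 0.363, 0.645, 0.464 and 0.758. With the block and A1129 or A1471 left out, 0 members passed, and with A1005 left out 5 did. Groups of 3 libraries are too small for the search for outlying samples, which was not run.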

How the results depend on the processing

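Direction was the stable feature and the number of calls was not. Apart from the block on all lines, shares of all genes called under the alternatives are not given here. Changes in the counts below may therefore hold for all genes alike. The median change of the members in Combo against DMSO was -0.25 to -0.40 over all alternatives, and the mean ratio of summed levels was 0.783, 0.809 as a share of total counts and 0.798 with DESeq2 size factors. Against 7 called members in Combo against DMSO, the replicate block (cell line) gave 40, DESeq2 14, no filter on low counts 3, only the libraries compared 1, and a log2 fold change of at least 1.5 gave 0. The block with DESeq2 size factors gave 40 (1 of them higher) and with total counts alone 41 (2 higher). Leaving out a line gave 0 to 10 unpaired and 23 to 42 with the block. Against 1 in Combo against PD173074, the replicate block gave 27, also with either other scaling (3 of them higher with total counts alone), DESeq2 gave 5, and no filter, only the libraries compared and the larger fold each gave 0. Leaving out a line gave 0 to 3 unpaired and 11 to 30 with the block. Against 3 in Combo against Crizotinib, the replicate block gave 34 (34 and 31 with the other scalings), DESeq2 5, only the libraries compared and the larger fold 0, and leaving out a line 0 to 5 unpaired and 13 to 35 with the block. For the departure, 0 calls became 4 with the replicate block, 4 with DESeq2 size factors and 3 with total counts added to it, and 0 to 5 with a line left out. No other setting run called a member in the departure, and none called a member with either single inhibitor. The fits on fewer samples have fewer residual degrees of freedom, and the cause of the other differences was not tested. Of the 28 members named by rule none was called in opposite directions. Of the 6 largest called falls, no filter kept 3 calls, DESeq2 size factors, total counts alone and the stricter filter 5 each, and DESeq2 and limma-voom 6. Small uncalled values changed sign for 8 of these 28, such as Mrpl23 (up to 0.19) and Mrpl38 (up to 0.17).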
